A study of Tursiops truncatus with 76 samples.

Results

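Blood of wild common bottlenose dolphins from Barataria Bay, Louisiana (BAR) was compared with blood of dolphins from Sarasota Bay, Florida (SAR) within 2014, the only year in which both bays were sampled. The comparison took every library dated 2014, which gave 20 of the 76 samples of the series, 12 from BAR and 8 from SAR. The BAR dolphins were sampled on 10 to 19 June 2014 and comprised 8 females and 4 males, and the SAR dolphins were sampled on 5 to 9 May 2014 and comprised 4 females and 4 males. The 20 samples came from 20 different animals. All were free-ranging animals caught briefly for a health assessment and released, BAR having been oiled by the Deepwater Horizon spill and SAR serving as the comparison population. Month and site changed together, so season and bay cannot be told apart, and more of the BAR females were pregnant. Whole blood was drawn into tubes that fix RNA, and RNA-Seq gave 1 value per locus, in FPKM, the fragments mapped to it after correction for its length and for the size of the library.

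Blood RNA is a mixture of the RNA of red cell precursors and reticulocytes, platelets and the classes of white cell. Reticulocytes are young red cells that have lost the nucleus and still carry RNA for heme synthesis, iron handling, ribosomes and the membrane skeleton, and they lose this RNA as they mature. Because FPKM divide each locus by the total of its library, RNA of a few abundant transcripts lowers the FPKM of all other loci. The main comparisons are therefore given as deposited and again after median-ratio scaling. In that scaling each library was divided by the median ratio of its loci to their geometric mean over the 20 libraries. Some single genes are given with the scaled difference only, and a scaled call need not be a call as deposited. A log2 difference here is the mean of log2(FPKM + 1) in BAR minus that in SAR, and a locus was called where the limma p, adjusted by Benjamini-Hochberg, was 0.05 or less. In whole blood, fewer cells of a type and less RNA per cell cannot be told apart.

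The libraries of the bays differed in the share of RNA held by the most abundant loci. The sets of 10, 100 and 1000 most abundant loci were fixed by mean FPKM over the 20 libraries. The 1000 most abundant loci held 73.2%, 79.0% and 80.9% of the summed FPKM in the lowest, median and highest BAR libraries, against 82.2%, 87.0% and 89.7% in SAR, and the groups did not overlap (mean difference -8.23 percentage points; exact two-sided permutation test over 125970 splits, adjusted p = 4.2e-05 over 8 measures). The 100 most abundant loci held 39.5% to 52.6% in BAR and 53.6% to 67.5% in SAR, again without overlap, and the 10 most abundant held 11.2% to 22.6% in BAR and 20.8% to 30.5% in SAR. More loci had an FPKM above 0 in BAR, 15258 to 16524, than in SAR, 13796 to 15278, and 11 of the 12 BAR libraries lay above every SAR library (exact permutation test, adjusted p = 6.4e-05). The median-ratio factor, which set the scaling and was not tested, was 1.02 to 1.61 in BAR and 0.592 to 0.854 in SAR. Summed FPKM overlapped between the groups (exact permutation test, adjusted p = 0.26). Depth relative to the median library, read from the smallest FPKM steps, was 0.716 to 1.33 in BAR and 0.685 to 1.204 in SAR (exact permutation test, adjusted p = 0.42), though the value of SAR replicate 6, the highest in SAR, rested on 3 loci and that of SAR replicate 8 on 5. The first principal component of the 11423 expressed loci held 44.4% of the variance as deposited, with all BAR libraries on one side of all SAR libraries, and 16.5% after scaling, where 2 BAR libraries lay among the SAR libraries.

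**Figure D1:**
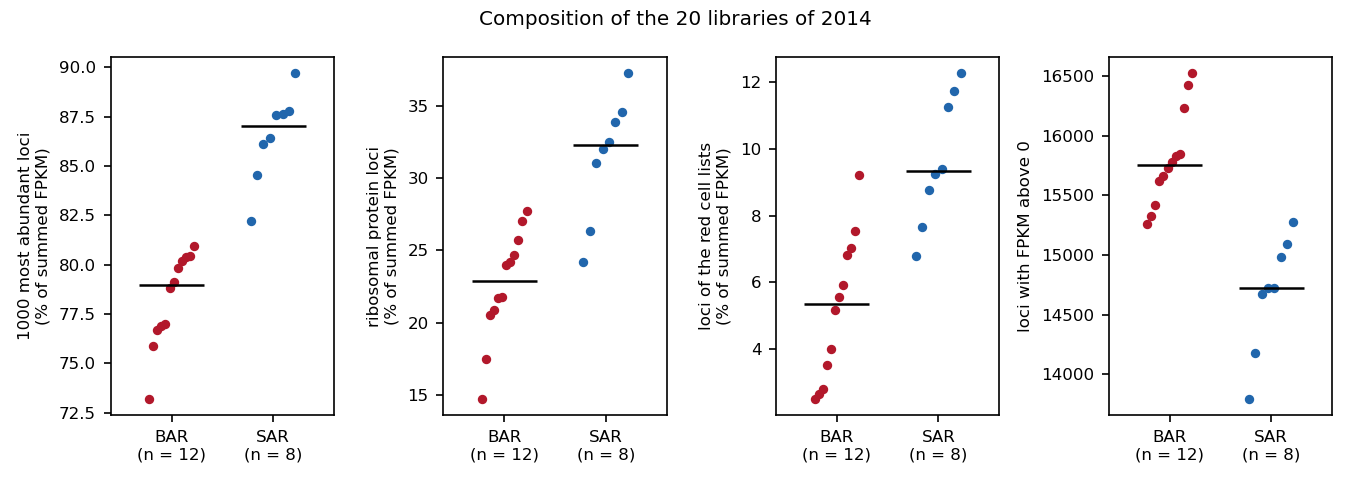
Composition of each library of 2014, as the percent of summed FPKM held by the 1000 most abundant loci, by 86 ribosomal protein loci and by 77 loci of 4 red cell lists, and as the number of loci with an FPKM above 0. Each point is 1 library, points are sorted within a group, and black lines are medians. The 1000 loci are those with the highest mean FPKM over the 20 libraries. All 12 BAR libraries lie below all 8 SAR libraries in the first panel, and 8 of the 12 do so in the second and in the third.

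As deposited, most of the transcriptome was higher in BAR. Of 11423 loci that averaged 1 FPKM or more and were detected in 10 or more of the 20 libraries, 8002 (70.1%) were called higher in BAR and 295 (2.58%) lower, and the median locus was 0.67 log2 units higher. After median-ratio scaling the balance turned. With the median locus at 0.02, 404 loci (3.54%) were called higher in BAR and 832 (7.28%) lower, and under quantile normalization, which gives every library the same distribution of values, 575 were higher and 477 lower. All 404 loci called higher after scaling were also higher as deposited, and 297 of them were higher under all 3 treatments of the data. Of the 832 called lower after scaling, 292 were lower as deposited, 508 were not called as deposited and 32 were called higher as deposited. The actin regulator gene WDR1 was 1 of these 32, at 0.36 (adjusted p = 0.0217) as deposited and -0.42 (adjusted p = 0.0116) scaled, and the proteasome ATPase gene PSMC3 was another, at 0.31 (adjusted p = 0.0346) and -0.46 (adjusted p = 0.0136). Without SAR replicate 8 the call of WDR1 as deposited was lost (adjusted p = 0.052), and that of PSMC3 was lost without any 1 of 6 libraries. In 920 loci (8.05%) all 12 BAR libraries lay above all 8 SAR libraries as deposited, and in 7 (0.0613%) all lay below; after scaling the counts were 6 (0.0525%) and 93 (0.814%).

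**Figure D2:**
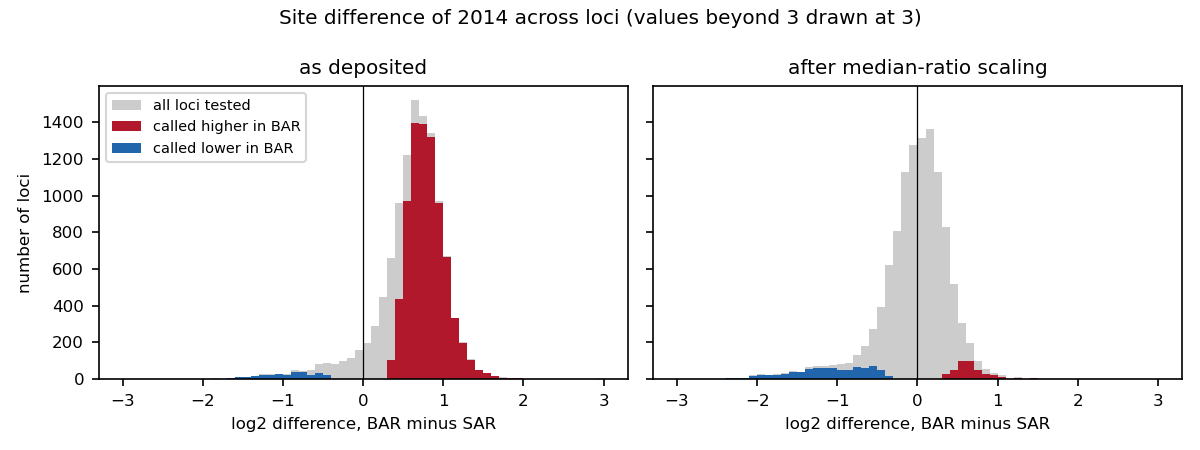
Number of loci at each log2 difference, BAR minus SAR, as deposited (left) and after median-ratio scaling (right), with loci called higher in BAR in red, loci called lower in BAR in blue and all 11423 tested loci in grey. The distribution is centred at 0.67 as deposited and at 0.02 after scaling, and a tail of loci lower in BAR is present in both.

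Genes that were higher in BAR under both treatments had varied functions, from sugar transfer and small RNA silencing to ion transport. Symbols were known for 3142 of the tested loci, and 75 of these met the rule of a mean of at least 5 FPKM in either bay and a call in the same direction under both treatments. The largest scaled difference belonged to OGT, which encodes the enzyme that attaches N-acetylglucosamine to nuclear and cytoplasmic proteins. OGT had 24.9, 43.5 and 79.15 FPKM in the lowest, median and highest BAR libraries, against 3.19, 9.91 and 19.1 FPKM in SAR. All BAR libraries lay above all SAR libraries, and the log2 difference was 2.17 as deposited (SE 0.26, adjusted p = 3.43e-06) and 1.45 scaled (SE 0.24, adjusted p = 0.000355). AGO4, an Argonaute gene of small RNA silencing, had 5.54, 8.21 and 18.9 FPKM in the lowest, median and highest BAR libraries, against 1.19, 1.74 and 4.14 FPKM in SAR. It was among the 6 loci in which the bays were separate also after scaling, with log2 differences of 1.66 as deposited (SE 0.20, adjusted p = 3.47e-06) and 1.06 scaled (SE 0.17, adjusted p = 0.000287).

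CLCC1, which encodes a chloride channel of the endoplasmic reticulum, averaged 14.1 ± 3.71 FPKM in BAR and 3.75 ± 1.90 FPKM in SAR (SD, n = 12 and 8), a scaled difference of 1.05 (adjusted p = 0.000409). BIRC2, a ubiquitin ligase gene that restrains cell death, averaged 18.6 ± 3.77 FPKM in BAR and 5.40 ± 1.29 FPKM in SAR, with a scaled difference of 0.92 (adjusted p = 0.000495). The sialomucin gene CD164 was the most abundant of the 12 genes with the largest increases. It had 89.7, 135 and 194 FPKM in the lowest, median and highest BAR libraries, against 29.0, 49.07 and 67.9 FPKM in SAR, and differed by 1.53 as deposited (SE 0.17, adjusted p = 2.46e-06) and 0.76 scaled (SE 0.13, adjusted p = 0.000514). Neither BIRC2 nor CD164 overlapped between the bays as deposited, and 11 of the 12 BAR libraries stayed above every SAR library after scaling for each. KCTD12, which encodes a partner of GABA-B receptors, averaged 83.9 ± 46.7 FPKM in BAR and 21.3 ± 13.2 FPKM in SAR, and TRIM35, a ubiquitin ligase gene, 9.01 ± 2.918 FPKM in BAR and 2.82 ± 2.19 FPKM in SAR. The scaled differences were 1.23 (adjusted p = 0.0113) for KCTD12 and 0.94 (adjusted p = 0.0164) for TRIM35. The others were LNPEP, a membrane aminopeptidase gene, at 0.90 (adjusted p = 0.0105), FMR1, an RNA-binding protein gene, at 0.87 (adjusted p = 0.00376), CSTF1, a gene of messenger RNA 3′ end cleavage, at 0.78 (adjusted p = 0.00294), CTSK, a lysosomal protease gene, at 0.74 (adjusted p = 0.0301), and B3GNT5, a glycosyltransferase gene, at 0.87 (adjusted p = 0.0419). Calls of B3GNT5 and CTSK after scaling were the least firm of the 12, since B3GNT5 lost its call without any 1 of 13 libraries (adjusted p up to 0.098) and CTSK without any 1 of 5 (up to 0.064). Under quantile normalization B3GNT5 and CTSK were not called either, at 0.80 (adjusted p = 0.0568) and 0.66 (adjusted p = 0.0508).

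**Figure D3:**
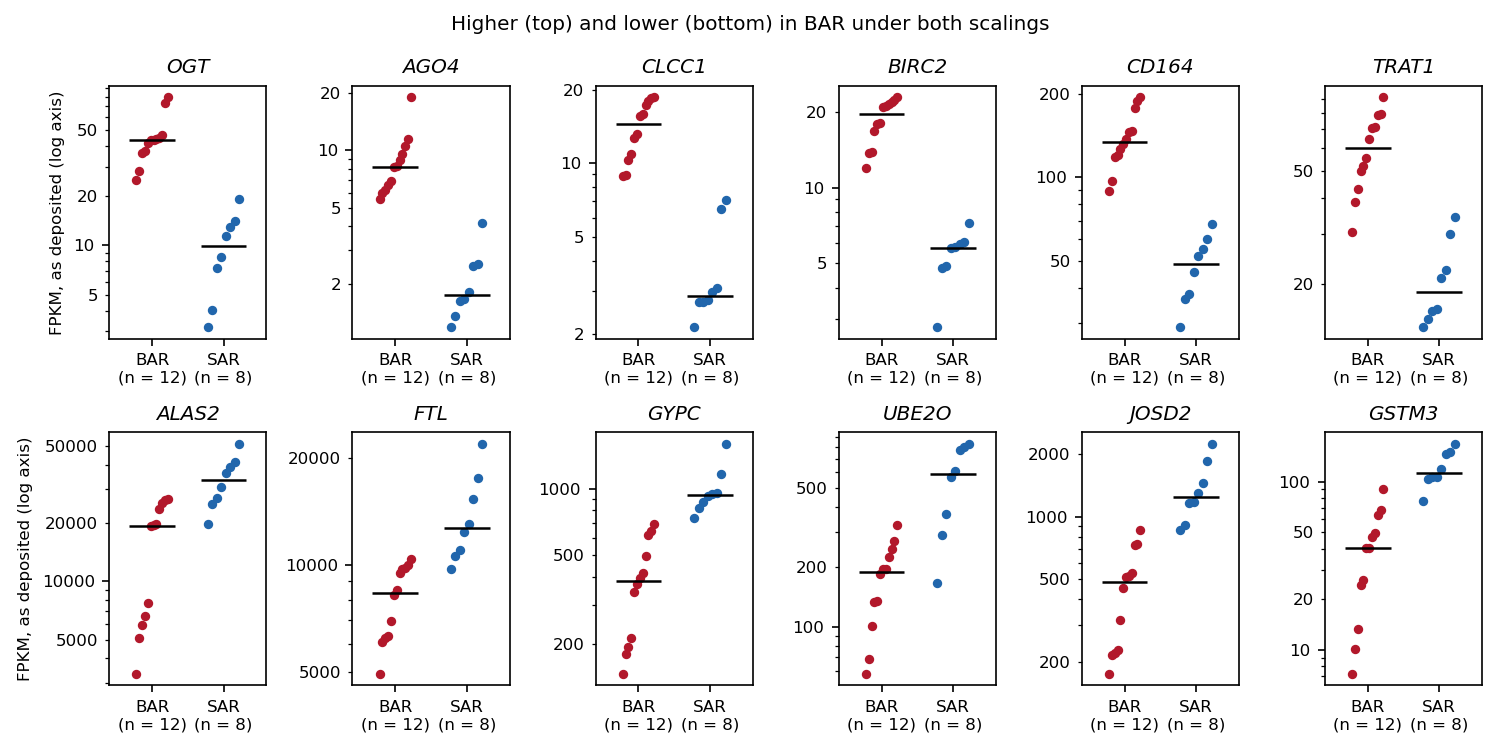
FPKM as deposited, on a log axis, of 6 genes higher in BAR (top) and 6 lower in BAR (bottom) as deposited and after scaling. Each point is 1 library, points are sorted within a group, and black lines are medians; OGT, AGO4, CLCC1, BIRC2 and CD164 do not overlap, nor do GYPC and JOSD2, while TRAT1 and the other 4 genes lower in BAR overlap in part.

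Genes of the red cell line were lower in BAR. Over 4 lists of red cell genes with 77 named loci, 43 were called lower and 11 higher as deposited, where 2.58% and 70.1% of all loci were so called. After scaling 60 were called lower, beside 7.28% of all loci. Lists hold named loci only, and named loci were called lower more often than all loci. Of the 3142 named loci tested, 229 were called lower and 2111 higher as deposited, and 506 lower and 84 higher after scaling. These counts of named loci stand beside every list in the report. Quantile normalization gave 48 lower and 2 higher, beside 477 lower and 575 higher of all 11423 loci. The same shares of all loci stand beside the counts of each red cell list and of the iron list below. The loci held 2.52% to 9.21% of the summed FPKM in BAR, with a median of 5.37%, and 6.78% to 12.3% in SAR, with a median of 9.32%, and 8 BAR libraries lay below every SAR library. The symbols come from the study's own tables, partly of genes picked on these samples, so the count is not independent evidence of its direction. The transcripts of the adult and embryonic hemoglobin genes HBB, HBM and HBZ were masked by the authors and are outside these values.

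Of 12 loci of heme synthesis and mitochondrial iron import, 7 were lower and 2 higher as deposited and 9 were lower after scaling, with medians of -0.44 and -1.21. ALAS2, the first enzyme of heme synthesis in red cell precursors, had 3338, 19386 and 26589 FPKM in the lowest, median and highest BAR libraries, against 19774, 33643 and 51455 FPKM in SAR. As deposited 7 BAR libraries lay below the lowest SAR library and after scaling all 12 did, and the log2 difference was -1.37 as deposited (SE 0.38, adjusted p = 0.0034) and -2.15 scaled (SE 0.43, adjusted p = 0.00183). Under quantile normalization the difference of ALAS2 shrank to -0.76 and was not called (adjusted p = 0.23). The iron-sulfur cluster genes ISCA1 and ISCU were lower, at -2.09 (adjusted p = 0.000424) and -1.22 (adjusted p = 0.000203) after scaling, and the heme transporter gene SLC48A1 at -1.21 (adjusted p = 0.000407).

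Membrane and skeleton genes gave 9 lower and 2 higher of 14 loci as deposited and 12 lower after scaling, with medians of -0.83 and -1.36. GYPC, which encodes a glycophorin that anchors the skeleton, had 147, 385 and 693 FPKM in the lowest, median and highest BAR libraries, against 740.2, 939 and 1591 FPKM in SAR. No BAR library reached the lowest SAR library, and the difference was -1.49 as deposited (SE 0.27, adjusted p = 9.38e-05) and -2.26 scaled (SE 0.31, adjusted p = 0.000115). The beta spectrin gene SPTB averaged 17.8 ± 15.2 FPKM in BAR and 45.14 ± 18.3 FPKM in SAR, the dematin gene DMTN 146 ± 115 FPKM in BAR and 379 ± 185 FPKM in SAR and the skeletal adaptor gene MPP1 254 ± 145 FPKM in BAR and 613 ± 225 FPKM in SAR. The scaled differences of these genes were -2.31 (adjusted p = 0.000807), -2.49 (adjusted p = 0.00129) and -2.197 (adjusted p = 0.000298). EPB42, which encodes protein 4.2, was near the limit of the filter, at 1.26 ± 0.907 FPKM in BAR and 2.84 ± 1.11 FPKM in SAR, and differed by -1.30 (adjusted p = 0.00056) after scaling.

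Among 21 loci of red cell enzymes, globin partners and oxygen transport, 14 were lower and 3 higher as deposited and 17 lower after scaling, with medians of -1.12 and -1.71, the lowest of all lists with 5 or more loci. FN3K, a kinase gene that removes sugar from glycated proteins, had 2 loci on the same scaffold, and reads could be split between them. The FN3K locus at 35001 to 40130 of NW_017843855.1 had 13.0, 60.3 and 122 FPKM in the lowest, median and highest BAR libraries, against 131, 175 and 256 FPKM in SAR. The groups did not overlap, and it differed by -1.83 as deposited (SE 0.38, adjusted p = 0.000308) and -2.59 scaled (SE 0.41, adjusted p = 0.000241). At the FN3K locus 5498 to 9446 of the scaffold the values were lower, 3.77 ± 3.79 FPKM in BAR and 12.1 ± 4.17 FPKM in SAR, and the scaled difference was -2.35 (adjusted p = 0.000138). GPX1, a glutathione peroxidase gene, averaged 15482 ± 5079 FPKM in BAR and 29278 ± 10614 FPKM in SAR, the peroxiredoxin gene PRDX2 405 ± 212 FPKM in BAR and 888 ± 288 FPKM in SAR and the biliverdin reductase gene BLVRB 8540.4 ± 3898 FPKM in BAR and 17026 ± 3436 FPKM in SAR. Their scaled differences were -1.71 (adjusted p = 0.000328), -2.02 (adjusted p = 0.000181) and -1.90 (adjusted p = 0.000298). All 3 were also called lower as deposited, and SAR replicate 2 stood apart for GPX1, at 53863 FPKM. Under quantile normalization GPX1 was not called, at -0.32 (adjusted p = 0.336). PKLR, the pyruvate kinase of red cells and liver, averaged 0.487 ± 0.391 FPKM in BAR and 2.75 ± 2.14 FPKM in SAR, a scaled difference of -1.58 (adjusted p = 0.00097). PKLR was near the floor, at 0 to 1.29 FPKM in BAR and 0.492 to 7.11 FPKM in SAR.

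Regulators of the red cell line and of its maturation gave 13 lower and 4 higher of 30 loci as deposited and 22 lower after scaling, with medians of -0.63 and -1.39. UBE2O, a ubiquitin ligase gene that clears proteins from reticulocytes, had 58.1, 189 and 325 FPKM in the lowest, median and highest BAR libraries, against 165, 588 and 829.9 FPKM in SAR. As deposited 5 BAR libraries lay below every SAR library and after scaling 10 did, and the difference was -1.61 as deposited (SE 0.33, adjusted p = 0.000274) and -2.39 scaled (SE 0.36, adjusted p = 0.000192). JOSD2, a deubiquitinase gene outside the red cell lists, had 175, 483 and 857 FPKM in the lowest, median and highest BAR libraries, against 859.7, 1236 and 2237 FPKM in SAR. The bays did not overlap, and JOSD2 differed by -1.70 as deposited (SE 0.29, adjusted p = 5.16e-05) and -2.47 scaled (SE 0.33, adjusted p = 0.000115). UCHL1, another deubiquitinase gene, was lower, at -2.34 (adjusted p = 0.00099) after scaling, the mitophagy receptor gene BNIP3L at -1.63 (adjusted p = 0.00278), RNF10, a ring finger protein gene, at -1.78 (adjusted p = 0.000367), and SLC43A1, an amino acid transporter gene, at -1.70 (adjusted p = 0.000509). Under quantile normalization RNF10 was not called, at -0.87 (adjusted p = 0.051). FAM178B was lower, at -2.35 (adjusted p = 0.000355).

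Iron storage transcripts were lower as well. Of 11 loci for iron uptake, storage and heme breakdown, 4 were lower and 1 higher as deposited and 6 lower after scaling. The ferritin light chain gene FTL had 4954, 8364 and 10433 FPKM in the lowest, median and highest BAR libraries, against 9779.9, 12733 and 21934 FPKM in SAR. It differed by -0.78 as deposited (SE 0.19, adjusted p = 0.00111) and -1.56 scaled (SE 0.23, adjusted p = 0.000192). The ferritin heavy chain gene FTH1 averaged 4358 ± 1679 FPKM in BAR and 7321 ± 2419 FPKM in SAR, with a scaled difference of -1.57 (adjusted p = 0.000765). Under quantile normalization neither ferritin gene was called, FTL being at -0.24 (adjusted p = 0.309) and FTH1 at -0.42 (adjusted p = 0.253). NCOA4, the receptor that sends ferritin to lysosomes, was at -0.43 (adjusted p = 0.081) as deposited and -1.196 (adjusted p = 0.00178) scaled.

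The other large decreases included genes of detoxification, transport and secretion. GSTM3, a glutathione transferase gene, had 7.24, 40.5 and 90.5 FPKM in the lowest, median and highest BAR libraries, against 76.3, 113 and 168 FPKM in SAR. After scaling all 12 BAR libraries lay below all SAR libraries, and GSTM3 differed by -1.87 as deposited (SE 0.37, adjusted p = 0.000184) and -2.63 scaled (SE 0.39, adjusted p = 0.000187). DMBT1, which encodes a secreted scavenger receptor cysteine-rich protein, had the largest scaled decrease of the named genes and a wide spread, 2.002, 17.7 and 71.8 FPKM in the lowest, median and highest BAR libraries, against 11.3, 82.4 and 247 FPKM in SAR. The groups overlapped, and it differed by -2.24 as deposited (SE 0.65, adjusted p = 0.00436) and -2.98 scaled (SE 0.63, adjusted p = 0.00293). FKBP8, an immunophilin gene of the mitochondrial surface, had 2 loci, 1 at 3.90 ± 3.79 FPKM in BAR and 14.7 ± 7.22 FPKM in SAR and the other at 3235 ± 2126 FPKM in BAR and 6412 ± 2909 FPKM in SAR. The first differed by -2.61 (adjusted p = 0.000336) after scaling and the second by -1.83 (adjusted p = 0.00414). Under quantile normalization the second FKBP8 locus was not called, at -0.79 (adjusted p = 0.187). ABCB4, a phospholipid transporter gene, averaged 13.0 ± 9.24 FPKM in BAR and 40.9 ± 31.4 FPKM in SAR, with a scaled difference of -2.37 (adjusted p = 0.00097).

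Ribosomal protein genes were lower in BAR as well. These genes encode the protein part of the cytosolic ribosome, and 75 of the 80 on the list had 86 loci. As deposited 47 were called lower, beside 2.58% of all loci, with a median of -0.49, and after scaling 81 were lower, beside 7.28% of all loci, with a median of -1.27. Under quantile normalization 15 were lower, beside 477 of all 11423 loci, and the median was -0.36. Together the loci held 14.7% to 27.7% of the summed FPKM in BAR, with a median of 22.9%, and 24.2% to 37.3% in SAR, with a median of 32.3%. RPL27A averaged 5733 ± 1017 FPKM in BAR and 9281 ± 2243 FPKM in SAR, with a scaled difference of -1.46 (adjusted p = 0.000115). It was not called under quantile normalization, at -0.26 (adjusted p = 0.243). Ribosomal protein genes have many processed copies, and their reads can be split between loci. RPS6 and RPL21 had 2 loci each. The RPS6 loci differed by -1.23 (adjusted p = 0.000115) and -1.29 (adjusted p = 0.000138) after scaling and the RPL21 loci by -1.52 (adjusted p = 0.000115) and -0.998 (adjusted p = 0.00788).

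Other very abundant transcripts were lower in BAR after scaling. The more abundant TPT1 locus, for the translationally controlled tumor protein, averaged 17189 ± 5288 FPKM in BAR and 29823 ± 7083 FPKM in SAR, and ATPIF1, for the inhibitor of mitochondrial ATP synthase, 11241 ± 4469 FPKM in BAR and 20034 ± 8616 FPKM in SAR. Scaled differences were -1.61 (adjusted p = 0.000298) for TPT1 and -1.64 (adjusted p = 0.00122) for ATPIF1. Under quantile normalization neither was called, TPT1 being at -0.12 (adjusted p = 0.755) and ATPIF1 at -0.31 (adjusted p = 0.479). Translation factors were mixed, with 13 of 26 loci higher and 4 lower as deposited and 13 lower after scaling. The shares of all loci were 70.1%, 2.58% and 7.28%. The poly(A)-binding protein gene PABPC1 was lower, at -1.51 (adjusted p = 0.000205) after scaling, the initiation factor subunit gene EIF3G at -1.23 (adjusted p = 8.88e-05) and EIF3H at -1.19 (adjusted p = 0.000568). PABPC1 and EIF3G were called lower as deposited too, and EIF3H was not, at -0.41 (adjusted p = 0.0831).

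Markers of platelets and white cells did not share 1 direction under both treatments. Over all loci 70.1% were called higher and 2.58% lower as deposited, and 7.28% lower after scaling. Of the 3142 named loci, from which the lists are drawn, 506 were called lower after scaling. Of 20 platelet loci, 7 were higher and 1 lower as deposited and 9 lower after scaling. Their summed level as deposited was 3266 to 10189.5 FPKM in BAR and 3198 to 8544 FPKM in SAR, with medians of 6806 and 5201 FPKM. After scaling the median sums were 5301 in BAR and 6881 in SAR. ITGA2B, the platelet fibrinogen receptor subunit, averaged 57.4 ± 28.7 FPKM in BAR and 112 ± 71.8 FPKM in SAR and was lower under both, at -0.88 (adjusted p = 0.0261) as deposited and -1.64 (adjusted p = 0.00202) scaled. The call of ITGA2B as deposited was lost without any 1 of 3 SAR libraries (adjusted p up to 0.0685). The coagulation factor gene F13A1 was lower, at -0.97 (adjusted p = 0.00233) after scaling, the platelet receptor gene TREML1 at -1.14 (adjusted p = 0.00283) and the calmodulin-binding protein gene NRGN at -1.10 (adjusted p = 0.00313). As deposited these 3 were not called, at -0.21 (adjusted p = 0.401), -0.42 (adjusted p = 0.124) and -0.33 (adjusted p = 0.23).

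Neutrophil and monocyte lists were also below the 70.1% of all loci called higher as deposited. Among 17 neutrophil loci, 4 were higher as deposited and 3 lower after scaling. Their summed level as deposited was 2619.8 to 6545 FPKM in BAR and 2178 to 5782 FPKM in SAR, with medians of 3459 and 3470 FPKM. After scaling the median sums were 2806 in BAR and 4604 in SAR. CYSTM1 was at -0.30 (adjusted p = 0.379) as deposited and -1.08 (adjusted p = 0.0483) scaled, the scaled call being lost without any 1 of 15 libraries. Monocyte and macrophage markers gave 7 of 20 loci higher as deposited and 2 lower after scaling. Those lower were CTSB, a lysosomal protease gene, at -0.69 (adjusted p = 0.0211), and C1QC, a complement chain gene, at -1.70 (adjusted p = 0.0341), while its partner C1QA was at -1.21 (adjusted p = 0.0571). SAR replicate 1 had 260.1 FPKM of C1QC and the other SAR libraries 16.5 to 53.7 FPKM, and the call was lost without any 1 of 6 libraries. The chemokine receptor gene CCR2, which marks circulating monocytes, was called higher as deposited, at 1.52 (adjusted p = 0.000239), and not after scaling, at 0.80 (adjusted p = 0.0527). LYZ, the lysozyme gene, chosen after its values were seen, was higher as deposited, at 0.69 (adjusted p = 0.0169), and at -0.09 (adjusted p = 0.842) after scaling, and the quantile-normalized difference was 1.198 (adjusted p = 0.016).

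Among lymphocyte markers, 7 of 8 T cell, 4 of 10 B cell and 4 of 11 cytotoxic and natural killer cell loci were called higher in BAR as deposited, beside 70.1% of all loci, a share that the B cell and cytotoxic lists did not reach. After scaling, TRAT1, an adaptor of the T cell receptor, was called higher. It had 30.6, 60.1 and 90.8 FPKM in the lowest, median and highest BAR libraries, against 14.1, 18.6 and 34.3 FPKM in SAR, a difference of 1.48 as deposited (SE 0.20, adjusted p = 8.12e-06) and 0.72 scaled (SE 0.19, adjusted p = 0.0144). The natural killer cell receptor gene CD244 averaged 24.7 ± 6.17 FPKM in BAR and 9.26 ± 3.57 FPKM in SAR, without overlap, and was called higher after scaling too, at 0.66 (adjusted p = 0.0379). LAG3, an inhibitory receptor gene, was called lower after scaling, at -2.08 (adjusted p = 0.0343), and not as deposited, at -1.33 (adjusted p = 0.0659). It had 1.9173, 57.4 and 132 FPKM in the lowest, median and highest BAR libraries, against 46.0, 71.9 and 146 FPKM in SAR, and 4 BAR libraries at 1.9173 to 9.19 FPKM stood apart from the other 8, at 38.6 to 132 FPKM, which overlapped SAR. Also lower after scaling was CD37, a tetraspanin gene of B cells, at -0.55 (adjusted p = 0.0259), against 0.23 (adjusted p = 0.252) as deposited. After scaling the calls were lost without any 1 of 9 libraries for CD244, any 1 of 5 for LAG3 and any 1 of 2 for CD37. CD3G, the gamma chain of the T cell receptor complex, was called as deposited and not after scaling, at 1.25 (adjusted p = 0.000247) against 0.48 (adjusted p = 0.222) scaled. Eosinophil and basophil markers gave 8 of 11 loci higher as deposited, near the share of all loci, among them the high-affinity IgE receptor gene MS4A2, at 253 ± 76.9 FPKM in BAR and 116 ± 43.0 FPKM in SAR, and the eotaxin receptor gene CCR3, at 203 ± 66.179 FPKM in BAR and 99.4 ± 37.4 FPKM in SAR. After scaling MS4A2 was at 0.37 (adjusted p = 0.304) and CCR3 at 0.25 (adjusted p = 0.546). Of 20 markers of skin, muscle and fat, 3 were named and their summed level was 83.7 to 221 FPKM in BAR and 52.9 to 164 FPKM in SAR, DCN being higher as deposited, at 1.25 (adjusted p = 0.0014), and KRT5 lower after scaling, at -1.07 (adjusted p = 0.0041). The part of these cell classes in the other results was not tested.

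Interferon-induced antiviral genes, which respond to viral infection, gave 28 of 36 loci higher as deposited, beside 70.1% of all loci. After scaling limma called 1 locus, HSH2D, an adaptor gene, which was lower, at -0.57 (adjusted p = 0.0498), and at an unadjusted p under 0.05 there were 3 higher and 2 lower. The HSH2D call was lost without any 1 of 16 libraries. OAS1, an antiviral nucleic acid sensor, had the largest difference of the group as deposited. It had 1.12, 10.2 and 31.8 FPKM in the lowest, median and highest BAR libraries, against 0.323, 2.78 and 7.31 FPKM in SAR, a difference of 1.68 as deposited (SE 0.44, adjusted p = 0.00227) and 1.09 scaled (SE 0.44, adjusted p = 0.118). CMPK2, a mitochondrial nucleotide kinase gene, was at 0.43 (adjusted p = 0.132) after scaling, PARP14, an ADP-ribosyltransferase gene, at 0.70 (adjusted p = 0.147) and the immune checkpoint ligand gene CD274 at 0.53 (adjusted p = 0.177). These genes were called higher as deposited, at 1.15 (adjusted p = 6.97e-05), 1.35 (adjusted p = 0.00154) and 1.24 (adjusted p = 0.000483). As deposited the antiviral list summed to 1498 to 4306 FPKM in BAR and 1269 to 4616 FPKM in SAR, with medians of 2721 and 1564 FPKM. After scaling the median sums were close, 2135 in BAR and 2142 in SAR. Among SAR libraries replicate 1 was the highest for OAS1, PARP14 and CD274, at 7.31, 9.59 and 18.2 FPKM. Replicate 8 was the highest for CMPK2 and replicate 3 for HSH2D. All 11 loci of peptide presentation were higher as deposited. ERAP2, an aminopeptidase that trims peptides for presentation, averaged 11.4 ± 4.02 FPKM in BAR and 4.03 ± 2.202 FPKM in SAR and was also called higher after scaling, at 0.67 (adjusted p = 0.025), while its relative ERAP1 was at 0.45 (adjusted p = 0.1). The ERAP2 call was lost without SAR replicate 2 or 3 (adjusted p up to 0.062).

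The counts for energy metabolism and housekeeping lists stand beside 70.1% of all loci called higher as deposited, and 3.54% called higher and 7.28% lower after scaling. Of the 3142 named loci, from which the lists are drawn, 506 were called lower after scaling. Complex I of the respiratory chain, below the 70.1%, gave 5 of 12 loci higher as deposited and 2 lower after scaling, NDUFV3 at -0.97 (adjusted p = 0.00386) and NDUFA2 at -0.70 (adjusted p = 0.017). Neither was called as deposited, NDUFV3 being at -0.19 (adjusted p = 0.326) and NDUFA2 at 0.0763 (adjusted p = 0.695). Complexes II to V gave 9 of 21 loci higher and 3 lower as deposited and 8 lower after scaling, including COX6B1 of cytochrome oxidase at -1.03 (adjusted p = 0.000412), ATP5J2 of ATP synthase at -1.29 (adjusted p = 0.000502) and UQCRH of Complex III at -1.43 (adjusted p = 0.00103). COX6B1 was not called as deposited, at -0.26 (adjusted p = 0.118). ATP5J2 and UQCRH were lower there too, at -0.51 (adjusted p = 0.0286) and -0.66 (adjusted p = 0.0179). Glycolysis gave 6 higher and 1 lower of 11 as deposited and 4 lower after scaling. Of 39 actin loci 29 were higher as deposited and 4 lower after scaling. Quantile normalization gave 14 higher and 1 lower, beside 575 higher and 477 lower of all 11423 loci. The myosin light chain gene MYL12B was at -0.48 (adjusted p = 0.0105) scaled and 0.29 (adjusted p = 0.0725) as deposited. Proteasome subunits gave 10 of 13 higher as deposited and 3 lower after scaling. Chromatin enzymes gave 31 of 33 higher as deposited. After scaling EZH1, a histone H3 methyltransferase gene, was higher, at 0.63 (adjusted p = 0.0424), and SMARCC1, of a chromatin remodeling complex, and KAT2B, a histone acetyltransferase gene, were lower, at -1.12 (adjusted p = 0.000514) and -1.44 (adjusted p = 0.006). The scaled EZH1 call was lost without any 1 of 11 libraries. SMARCC1 and KAT2B were not called as deposited, at -0.36 (adjusted p = 0.0812) and -0.67 (adjusted p = 0.0522). Autophagy gave 10 of 16 higher and 3 lower as deposited and 6 lower after scaling, among them GABARAPL2 at -1.32 (adjusted p = 0.000712) and ATG4A at -1.26 (adjusted p = 0.000443).

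The stress and detoxification counts stand beside the same shares of all loci, 70.1% higher as deposited and 7.28% lower after scaling. They also stand beside the 506 of 3142 named loci called lower after scaling. Glutathione and peroxide defense gave 6 of 17 loci higher and 4 lower as deposited and 6 lower after scaling. The aryl hydrocarbon receptor list, genes of the response to planar hydrocarbons, gave 7 of 10 higher and 1 lower as deposited, and after scaling GSTM3 was called lower. ABCB1, a drug efflux transporter gene, had 0.811, 7.23 and 19.3 FPKM in the lowest, median and highest BAR libraries, against 0.138, 0.329 and 6.24 FPKM in SAR, and was at 1.29 (adjusted p = 0.11) after scaling. It was called higher as deposited, at 1.75 (adjusted p = 0.00347). Of 12 heat shock and unfolded protein loci 11 were higher as deposited, and limma called none after scaling, with 1 higher at an unadjusted p under 0.05. Ferroptosis lipid genes gave 8 of 10 higher and 1 lower as deposited and 2 lower after scaling, the voltage-dependent anion channel gene VDAC3 among them at -1.82 (adjusted p = 0.0015). Cell division gave 7 of 11 higher and 1 lower as deposited, BIRC5, a survivin gene of dividing cells, at -0.68 (adjusted p = 0.0484) and -1.38 (adjusted p = 0.00648) scaled; the call as deposited was lost without any 1 of 13 libraries (adjusted p up to 0.11).

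Among the lists not yet described, the guanylate-binding and interferon gamma-induced genes gave 6 of 9 loci higher as deposited, type 2 and interleukin 6 receptor signaling 9 of 13, Toll-like receptor and inflammasome genes 7 of 11, chemokines and receptors 5 of 10, immediate early genes 5 of 11 and glucocorticoid-induced genes 1 of 6, all below the 70.1% of all loci. After scaling, 1 of these loci was called, the cell cycle inhibitor gene CDKN1A of the immediate early list, which was lower, at -0.76 (adjusted p = 0.013). SAR replicate 1 had 37.2 FPKM of the guanylate-binding protein gene GBP4, and the other SAR libraries had 0.952 to 4.82 FPKM. The single mitochondrially encoded locus named was not called under either treatment.

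**Figure D4:**
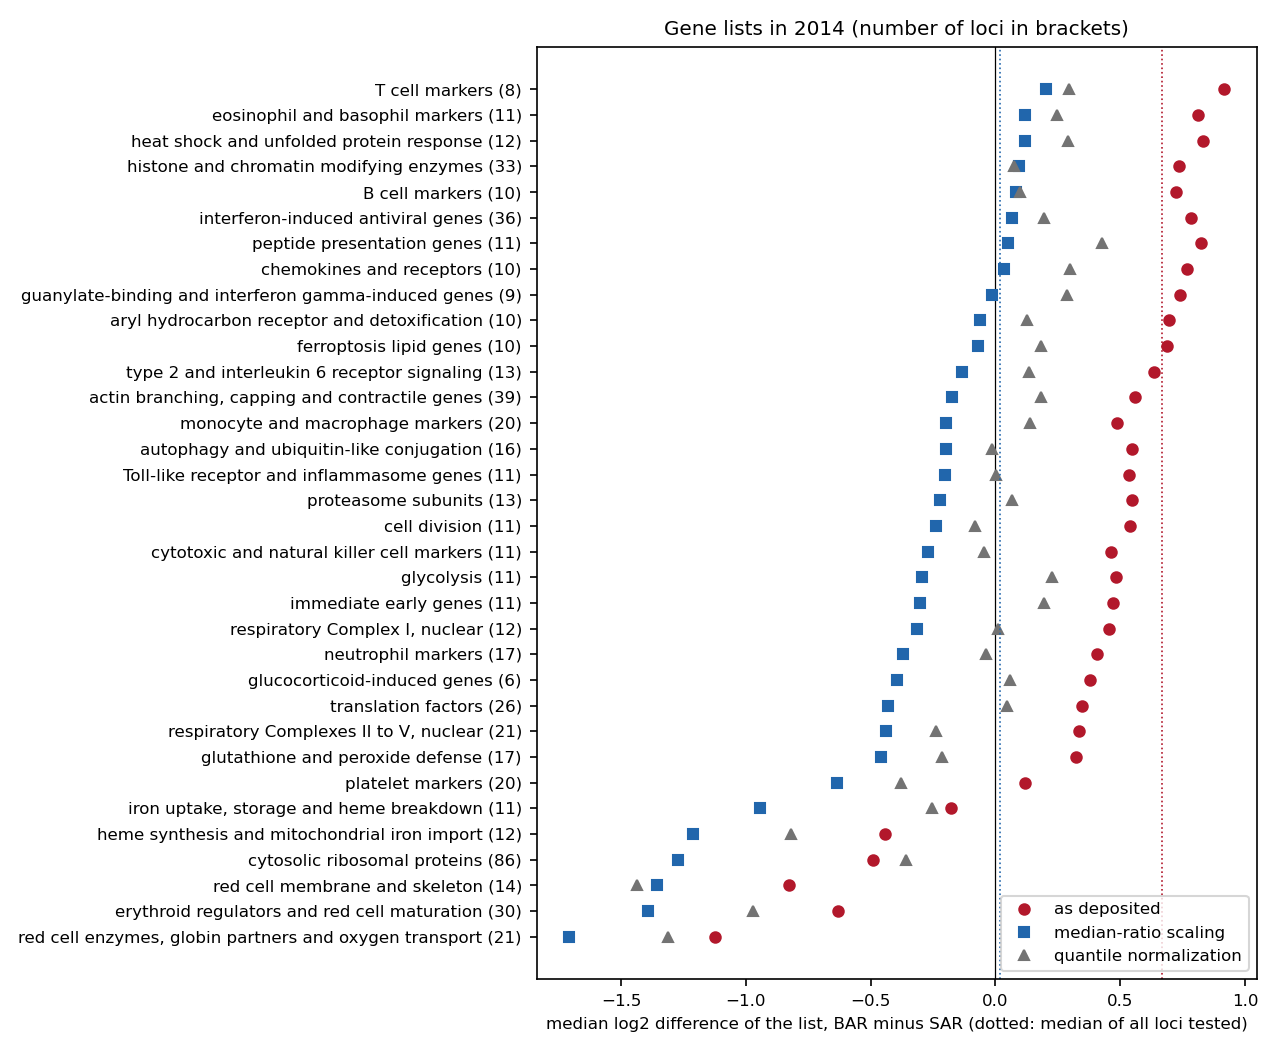
Median log2 difference, BAR minus SAR, of each gene list with 5 or more named loci, as deposited (red circles), after median-ratio scaling (blue squares) and after quantile normalization (grey triangles), with the medians of all tested loci as dotted lines at 0.67 and 0.02. The 4 red cell lists, the iron list and the ribosomal proteins are the 6 lists shown with a median below 0 under all 3 treatments.

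The site difference of 2014 was set against that of the other years, formed by the 48 BAR samples of 2013, 2017 and 2018 and the 8 SAR samples of May 2016. None of those years had both bays, so bay, year and month cannot be told apart in that contrast. In those years 31 of 11485 loci (0.27%) were called between the bays as deposited and 9 (0.0784%) after scaling. The 2014 difference departed from the other one in 3573 loci (31.1%) as deposited and 984 (8.57%) after scaling, tested as a contrast within 1 fit of all 76 samples. Between the SAR samples of 2014 and those of 2016, 2885 loci (25.1%) differed as deposited, 2779 of them lower in 2014, and 1644 (14.3%) after scaling. Between BAR samples of 2014 and those of the other years the counts were 30 (0.261%) and, by limma after scaling, 0 (0%), with 829 at an unadjusted p under 0.05. Some BAR animals of 2014 were also sampled in another year, and this contrast treats their samples as independent. The 1000 loci most abundant on average in the 20 libraries of 2014 took 87.0% of summed FPKM at the median of SAR 2014 and 82.3% at that of SAR 2016. For this set the medians of the 5 BAR groups were 75.9% to 79.7%. The set was chosen on libraries of 2014, so it need not hold the most abundant loci of the other groups. The 2014 site difference and the SAR contrast share the SAR samples of 2014, the 2014 site difference and the BAR contrast share the BAR samples of 2014, and the counts are given side by side only.

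Named genes differed in how far the 2014 difference was seen in other years. OGT, AGO4, BIRC2, TRIM35, UBE2O and UCHL1 were chosen for large differences in 2014. GYPC and OAS1 were chosen for small adjusted p values in 2014 within their lists, and the contrast with the other years reuses the values of all these genes. A larger difference in 2014 was therefore favoured in advance, and their p values are no independent evidence of a difference between years. OGT was at 1.45 in 2014 and -0.33 in the other years (adjusted p of the difference = 0.000239), AGO4 at 1.06 in 2014 and -0.22 in the other years (adjusted p of the difference = 0.000294), and BIRC2 at 0.92 in 2014 and -0.12 in the other years (adjusted p of the difference = 0.000424). TRIM35 was at 0.94 in 2014 and -0.59 in the other years (adjusted p of the difference = 0.000239). Scaled differences of the red cell genes UBE2O, GYPC and ALAS2 were below 0 in both contrasts. UBE2O was at -2.39 in 2014 and -0.43 in the other years (adjusted p of the difference = 0.00795), GYPC at -2.26 in 2014 and -0.74 in the other years (adjusted p of the difference = 0.0173) and ALAS2 at -2.15 in 2014 and -0.74 in the other years (adjusted p of the difference = 0.0998). UCHL1, called lower in 2014, was at -2.34 in 2014 and -1.73 in the other years (adjusted p of the difference = 0.556). By limma UCHL1 was also called lower in the other years after scaling (adjusted p = 0.0467). Ribosomal proteins had a scaled median of -1.27 in 2014 and -0.36 in the other years, and 28 of the 86 loci departed between the contrasts. Interferon-induced genes had scaled medians of 0.06 in 2014 and 0.50 in the other years and 1 of the 36 loci departed. Both counts stand beside 8.57% of all loci. OAS1 was at 1.09 in 2014 and 1.70 in the other years (adjusted p of the difference = 0.635).

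The sexes were not balanced between the bays. With sex as a covariate 8087 loci were called as deposited and 1220 after scaling. Among females alone, 8 from BAR and 4 from SAR, the counts were 6306 and 1453, and among males, 4 from each, 1916 and 65. OGT was higher by 2.73 in females and 1.52 in males as deposited, and by 1.97 and 0.88 after scaling, the last not called (adjusted p = 0.24). GYPC was at -2.30 in females and -1.98 in males after scaling, and was called in both. In 1 locus as deposited and 3 after scaling the site difference itself differed between the sexes by the interaction test. None of the named genes was among them.

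Loci called in opposite directions differed in length and abundance. After scaling, the median span of a locus on its scaffold, introns included, was 31909 bases for loci higher in BAR and 6059 bases for those lower, beside 17330 for all tested, and the median of mean FPKM was 6.55 for the higher, 63.6 for the lower and 11.0 for all. With loci divided into 10 equal groups by span, in the group of shortest spans the median scaled difference was -0.24, with 17 loci called higher and 181 lower. In the group of longest spans it was 0.11, with 46 higher and 38 lower. In the other years the corresponding medians were 0.01 and -0.05. Across the 11423 loci, which share the 20 libraries and are not independent, Spearman's rho of span and scaled difference was 0.27, and across loci in the other years it was -0.12. By abundance, the median scaled difference was 0.13 in the least abundant of 10 groups and -0.36 in the most abundant. The 12 genes with the largest increases spanned 1655 bases (B3GNT5) to 93013 bases (LNPEP), the second shortest being CSTF1 at 9925 bases. Whether RNA integrity or cell makeup moved with span was not tested.

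**Figure D5:**
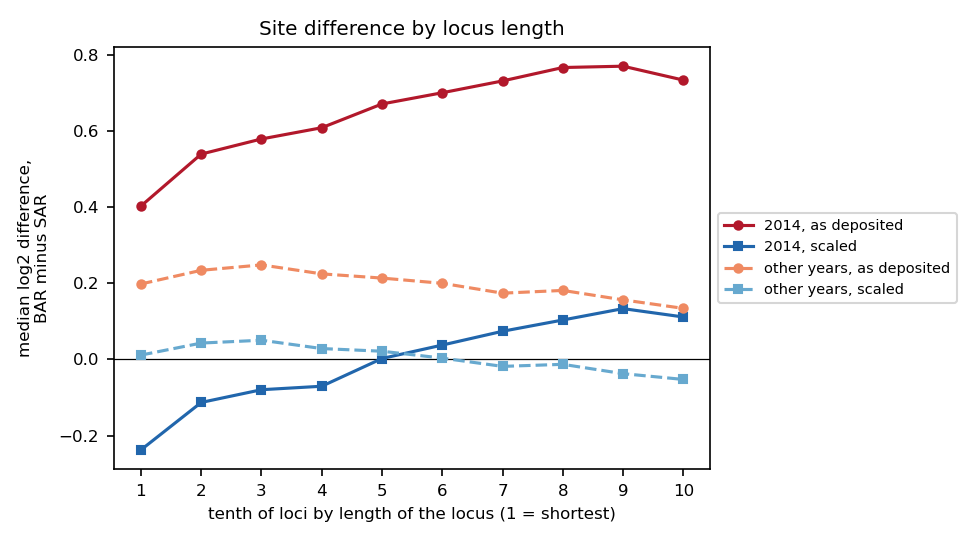
Median log2 difference, BAR minus SAR, in 10 groups of loci ordered by span, for 2014 (solid) and the other years (dashed), as deposited (circles) and after median-ratio scaling (squares). In 2014 the scaled median was -0.24 in the group of shortest spans and 0.11 in that of longest spans, and in the other years it was 0.01 and -0.05.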

How the data were processed

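Whole blood RNA of 20 dolphins sampled in 2014 was compared, 12 from BAR and 8 from SAR. The authors trimmed reads with Trimmomatic 0.33, aligned them with TopHat2 2.1.1 using Bowtie2 to the Tur_tru v1 assembly, and obtained the deposited FPKM per locus with Cufflinks 2.2.1, hemoglobin transcripts masked. The study states a target depth for all samples, but the reads of each library and the sequencing batch are not given in the sources used here. Relative depth came from the smallest steps of FPKM and rested on 3 to 411 loci per library. Median-ratio factors were computed over the 20 libraries from 11778 loci above 0 in every one of them.

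Of 24094 loci, 11423 passed a mean FPKM of at least 1 and a value above 0 in at least 10 libraries. Values were tested as log2(FPKM + 1), a scale that understates the change of low loci, with limma 3.58.1 in R 4.3.3 (trend, two-sided, Benjamini-Hochberg adjustment over all loci tested, threshold 0.05). Library measures were tested by exact permutation in Python 3.11.15 with numpy 2.4.6, pandas 2.3.3 and scipy 1.17.1, and plots were drawn with matplotlib 3.10.9. The procedure was tested on simulated data. The site difference of 2014 was compared with that of the other years in 1 fit of 76 samples. A second sheet of values was not used here. Some genes that met the rule for naming are not reported here.

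Symbols for 3142 tested loci came from the study's supplementary tables, many of them lists drawn from these samples. The comparison, the genes and the gene lists were chosen with earlier results of these data known, and a count over named genes is no independent evidence. Genes were named if they were among the 12 largest increases or the 12 largest decreases after scaling, with a mean of at least 5 FPKM in a bay and a call in the same direction under both treatments, among the 4 members of a list with the smallest adjusted p after scaling, or among the 5 most abundant named loci. Alternatives were another pseudocount, filter, scaling, fit and covariate, each sex alone, and leaving out each library in turn.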

Additional observations from a re-analysis of the deposited data

Results flagged for a closer look

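In 4 of 98 tests for a library that stands apart from the others of its bay, a SAR library lay farther out than Dixon's 95% critical value for 8 samples, a rule that chance meets in about 1 of 20 groups. SAR replicate 1 was the lowest for BIRC2, at 2.79 FPKM, and for VDAC3, at 756 FPKM, and the highest for C1QC, at 260.1 FPKM. SAR replicate 2 was the highest for GPX1, at 53860 FPKM. On the FPKM printed here BIRC2 and VDAC3 fall short of Dixon's value. The 4 are not a full list of such libraries. SAR replicate 1 had 37.2 FPKM of GBP4, beside 0.952 to 4.82 FPKM in the other SAR libraries, and GBP4 is not among them.

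The site difference of 2014 departed from that of the other years in 3573 loci as deposited and in 984 after scaling, by the contrast within 1 limma fit. After scaling, 2014 minus the other years was 1.77 for OGT, 1.54 for TRIM35, 1.28 for AGO4, 1.17 for CLCC1, 1.11 for LNPEP, 1.04 for BIRC2, 0.94 for CTSK, 0.83 for CSTF1 and 0.75 for FMR1. It was -1.97 for UBE2O, -1.73 for JOSD2, -1.90 for GSTM3, and -1.67 and -1.90 for the FN3K loci. All these genes were chosen for large differences in 2014, which favoured such gaps in advance. The site difference differed between the sexes in 1 locus as deposited and in 3 after scaling, none with a symbol.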

How the results depend on the processing

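The 8297 loci called as deposited became 1916 in males only and 4585 at a mean FPKM of at least 10, and 7689 to 8396 when each library was left out in turn. The 1236 called after scaling became 1875 in the fit of all 76 samples, 65 in males only, 8297 with no scaling, 5127 with FPKM rescaled to a total without the 100 most abundant loci (4642 higher and 485 lower), and 964 to 1527 when each library was left out. A pseudocount of 0.1 gave 2 loci with a site by sex interaction as deposited. With the animal as a replicate block, 3696 loci as deposited and 1030 after scaling departed between 2014 and the other years. No paired analysis was possible between the bays of 2014 because no animal was sampled in both.

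Directions reversed as deposited in males only for NDUFV3 (0.00043), F13A1 (0.10), TREML1 (0.25) and NRGN (0.0173), and in females only for NDUFA2 (-0.41). After scaling they reversed in males only for B3GNT5 (-0.0378) and NDUFA2 (0.0055). With no scaling they reversed for HSH2D (0.20), NDUFA2 (0.0763), CTSB (0.0894), CD37 (0.23), MYL12B (0.29), WDR1 (0.36), PSMC3 (0.31) and LYZ (0.69), with quantile normalization for CTSB (0.19), CD37 (0.0785) and LYZ (1.198), and without the 100 most abundant loci for WDR1 (0.0298) and LYZ (0.36). With 1 library left out LYZ was at -0.171 (without SAR replicate 2) to 0.0342 (without SAR replicate 1), where it reversed. The cause was not tested.

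Of 74 named loci called as deposited, 67 kept the call whichever library was left out, and of 82 called after scaling, 72 did. Of the 82, 30 lost the call under quantile normalization and 70 in males only. Besides genes given with that value in the report, quantile normalization ended the scaled calls of HSH2D, NDUFV3, NDUFA2, COX6B1, CYSTM1, CTSB, C1QC, CD37, LAG3, VDAC3, MYL12B, WDR1, PSMC3, GABARAPL2, KAT2B, EZH1, the other TPT1 locus and 1 locus each of RPS6 and RPL21. Month and bay cannot be told apart, and sequencing batch is unknown. The reads of each library are unknown beyond the study's target depth, so no counting interval is given.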
